A study of Mus musculus with 4 samples.

Results

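Toll-like receptors are the best known sensors of microbial products, and the cells described here, IgA-positive cells of the mouse small intestine, lie next to the gut microbiota. Followed here are the receptors Tlr1, Tlr2, Tlr4, Tlr6, Tlr7 and Tlr9, the signalling adaptors Myd88 and Ticam1, and Cd180 with its partner Ly86, 10 genes in all. They were chosen by gene symbol, as the probe sets that name only that gene, and make up 10 of the 18193 genes with such a probe set on the array. The 10 genes have 15 probe sets in all, of which Tlr4 has 4, Tlr7 has 3 and each other gene 1. Signals came from 4 Affymetrix 3' expression arrays, 1 per sample. The mice were female Balb/c, aged 9 weeks and labelled WT (wild type) in all groups, with no treatment named, and their cells were taken as CD11b-positive or CD11b-negative IgA-positive cells. Each fraction has 2 arrays. Within each fraction, 1 µg of RNA went into the One-Cycle labelling kit for 1 array and 0.1 µg into the 3' IVT Express kit for the other, so every difference between the fractions can be read within a kit. The labels do not say whether mice were pooled, or whether both arrays of a fraction share mice or a sort, so the spread behind each p-value is that between these 4 samples and may be technical. With so few arrays, every value is imprecise.

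Toll-like receptors recognise conserved microbial molecules through leucine-rich repeats and signal through a cytoplasmic TIR domain. Tlr2 pairs with Tlr1 or Tlr6 on the cell surface to sense bacterial lipopeptides, Tlr4 senses lipopolysaccharide with Ly96 (MD-2) and Cd14, and Tlr7 and Tlr9 sense RNA and DNA inside endosomes. Myd88 carries the signal of most of these receptors to the Irak kinases and Traf6, and Ticam1 (TRIF) carries that of Tlr3 and endosomal Tlr4. Cd180 (RP105) is a receptor of B cells that resembles Tlr4 but lacks a TIR domain, and it reaches the surface bound to Ly86 (MD-1). In B-lineage cells, Toll-like receptor signals are known to promote proliferation, class switching and antibody secretion.

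The sort was visible on the arrays. Itgam, the gene of CD11b, had signals of 28.3 and 15.8 in the CD11b-negative against 189 and 109 in the CD11b-positive arrays, 6.12-fold apart with the One-Cycle kit, 5.95-fold with the other. All 8 plasma cell markers looked at, among them Sdc1, Prdm1 and Xbp1, lay above the floor defined below on all 4 arrays, and their summed signal was 50392 and 51761 in the CD11b-negative against 48176 and 48665 in the CD11b-positive arrays. Igha, Jchain, Mzb1 and Xbp1 made up most of that sum, while Sdc1 (CD138) was lower in the CD11b-positive arrays, at 5626 and 5941 against 3472 and 4155 (limma adjusted p = 8.98e-06 with the labelling kit as a block). Values given here are quantile-normalized signals unless stated otherwise, because the deposited arrays were not on a common scale (trimmed means from 48.6 to 90.3, lower in the CD11b-negative array of each kit).

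Myd88 and Tlr2 were among the genes above the floor described next on every array, and Tlr9 among those above it on none. The promoters of these 3 genes are shown as examples. Each runs 5′ to 3′ on the gene's own strand, from RefSeq on GRCm38.p6, over 300 bases around the transcription start (250 before it and 50 after), and capitals mark CG dinucleotides.
Myd88, chr9:119339969-119340268, minus strand: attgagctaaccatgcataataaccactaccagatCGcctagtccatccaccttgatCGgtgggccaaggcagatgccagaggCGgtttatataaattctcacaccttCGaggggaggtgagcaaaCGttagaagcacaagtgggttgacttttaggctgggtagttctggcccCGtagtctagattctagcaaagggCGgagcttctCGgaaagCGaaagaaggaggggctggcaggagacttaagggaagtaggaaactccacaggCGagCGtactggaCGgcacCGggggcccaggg
Tlr2, chr3:83841559-83841858, minus strand: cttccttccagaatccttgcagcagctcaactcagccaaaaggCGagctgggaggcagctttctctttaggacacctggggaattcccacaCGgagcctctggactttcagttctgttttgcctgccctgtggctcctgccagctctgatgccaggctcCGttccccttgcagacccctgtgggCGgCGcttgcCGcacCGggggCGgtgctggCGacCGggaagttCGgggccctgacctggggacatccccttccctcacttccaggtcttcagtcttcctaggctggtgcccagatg
Tlr9, chr9:106222348-106222647, plus strand: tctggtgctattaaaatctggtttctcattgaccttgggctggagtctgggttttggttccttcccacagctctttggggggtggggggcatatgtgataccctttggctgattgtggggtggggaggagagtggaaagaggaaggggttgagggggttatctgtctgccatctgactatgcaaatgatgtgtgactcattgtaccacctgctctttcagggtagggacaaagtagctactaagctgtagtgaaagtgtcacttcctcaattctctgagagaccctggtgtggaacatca
The Myd88 window holds 13 CG dinucleotides, the Tlr2 window 11 and the Tlr9 window 0. Over the 32851 mouse promoter windows of this length the median was 7, and 5.43% held 0. Of the 10 genes, 8 matched a window (11 windows in all); Tlr4 and Tlr7 did not. Ly86 had 13 CG dinucleotides, Ticam1 10, Cd180 5 in each of its 2 windows, Tlr6 5 and 7, and Tlr1 3 and 9. Whether the count goes with the signal was not tested.

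To say which of these sensors gave a signal at all, each probe set was set against a floor: on each array, the 90th percentile of the signals of 70 probe sets of 36 genes restricted to tissues not sampled (brain, heart, eye, testis and others). This floor was 29.7 and 25.4 with the One-Cycle kit (CD11b-negative, then CD11b-positive) and 31.2 and 26.8 with the 3' IVT Express kit. Tlr2, Cd180, Myd88 and Ticam1 lay above it on all 4 arrays, Tlr6 and Ly86 on 2, and Tlr1, Tlr4, Tlr7 and Tlr9 on 0. Thus 4 of 10 genes lay above it throughout, against 44.1% of all genes, and 4 on 0 arrays, against 43% of all genes, so at this floor the shares were close to those of all genes. At a lower floor, the 75th percentile, 7 of 10 genes lay above it on all 4 arrays, with Tlr1, Tlr6 and Ly86 added, against 54.7% of all genes. The floor is a guide to whether a signal can be told from nothing; probe sets differ in brightness, so levels of different genes are not compared with each other.

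Among the surface receptors, Tlr2, the lipopeptide receptor, had signals of 39.7 and 45.3 in the CD11b-negative against 44.6 and 42.7 in the CD11b-positive arrays (One-Cycle first, here and below). All 4 values lay close together and above the floor. Its partner Tlr6 had 23.9 and 24.4 in the CD11b-negative against 29.2 and 29.4 in the CD11b-positive arrays; both CD11b-positive values were above the floor of their arrays and both CD11b-negative values below it. Tlr1, the other partner, had 25.04 and 21.5 against 18.2 and 21.3, below the floor on each array. Tlr1 and Tlr6 are close relatives in sequence, and cross-hybridisation between their probe sets was not tested. The brightest of the 4 Tlr4 probe sets, for the receptor of lipopolysaccharide, had 22.4 and 2.76 in the CD11b-negative against 16.4 and 1.72 in the CD11b-positive arrays: values of a kit lay closer together than values of a fraction. The other 3 Tlr4 probe sets lay between 0.259 and 10.4, below the floor on every array.

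Of the endosomal receptors, neither gave a signal above the floor. Tlr7, the sensor of single-stranded RNA, had 15.6 and 8.01 in the CD11b-negative against 3.40 and 2.75 in the CD11b-positive arrays for its brightest probe set, so the fractions did not overlap, but at signals where the genes of tissues not sampled also lie. Its other 2 probe sets ran from 0.302 to 9.59 and their fractions overlapped. Tlr9, the sensor of CpG DNA, had 3.49 and 14.4 against 2.97 and 11.3, higher with the 3' IVT Express kit in both fractions. Tlr4, Tlr7 and Tlr9 stayed under the low-signal filter used for testing (a typical signal of 9.51, the 40th percentile of all probe sets) and were not tested, and no fold is given for them.

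Cd180, the B cell receptor related to Tlr4, had signals of 48.5 and 62.6 in the CD11b-negative against 34.4 and 60.9 in the CD11b-positive arrays, above the floor on each. Ly86, which escorts Cd180 to the surface, had 42.3 and 22.8 against 44.8 and 16.2. The 2 One-Cycle arrays were above the floor for Ly86 and the 2 arrays of the 3' IVT Express kit below it. For both partners, the kits were farther apart than the fractions, and in opposite directions: on the log2 scale, the 3' IVT Express kit stood 0.56 above the One-Cycle kit for Cd180 and at -1.06 for Ly86. Of the 7 genes tested, 4 had a larger difference between kits than between fractions, against 55.7% of all genes tested.

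The adaptors gave signals well clear of the floor. Myd88 had 153 and 136 in the CD11b-negative against 151 and 185 in the CD11b-positive arrays; the highest value was a CD11b-positive array, but the other CD11b-positive array lay between the CD11b-negative ones. Ticam1 had 138 and 96.7 against 126 and 106, with the CD11b-positive values inside the range of the CD11b-negative ones. Its only probe set carries a name that marks possible matches to several transcripts.

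**Figure D1:**
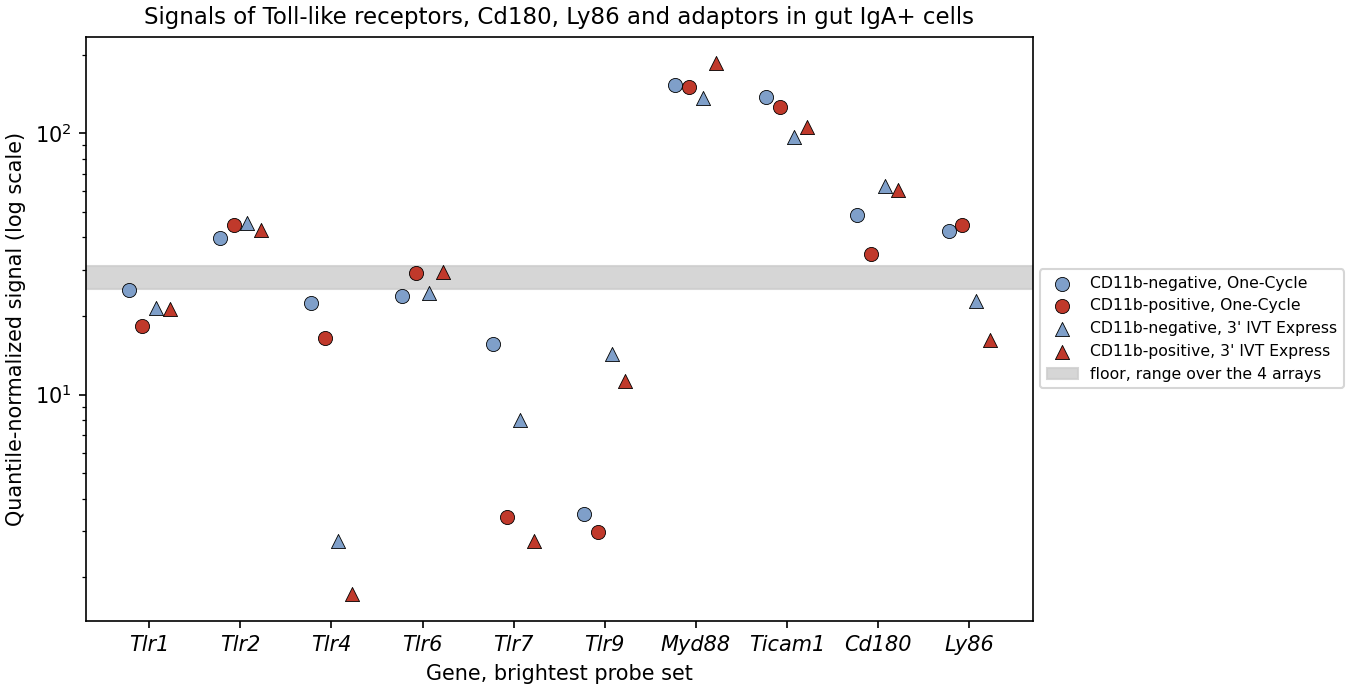
Quantile-normalized signal (log axis) of the brightest probe set of each of the 10 genes, 1 point per array; blue is CD11b-negative, red CD11b-positive, circles the One-Cycle kit and triangles the 3' IVT Express kit, and the grey band spans the floors of the 4 arrays, from 25.4 to 31.2. Tlr2, Cd180, Myd88 and Ticam1 lie above the band on every array, and Tlr1, Tlr4, Tlr7 and Tlr9 do not rise above it.

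The comparison of the 2 fractions asks whether the presence of CD11b on IgA-positive cells goes with a difference in microbial sensors. None of the 7 genes tested passed limma's test, although the arrays of Tlr6 and Tlr1 did not overlap between the fractions. With limma across 12645 genes, 0 of the 7 were called higher or lower at a Benjamini-Hochberg adjusted p under 0.05, as were 0 of all genes (0%), and 0 of the 7 had an unadjusted p under 0.05, against 6.66% of all genes. With the labelling kit added to the model as a block, which removes the difference between kits, the count was still 0 of 7, while 7.88% of all genes were called, 3.73% higher and 4.14% lower. Blocked values lean on a spread shared across genes, since only 1 residual degree of freedom remains for each.

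Tlr6 was the member whose fractions stood apart upward: 29.3 ± 0.157 against 24.2 ± 0.391 (SD, n = 2 each), a 1.19-fold difference that was nearly the same with both kits (0.26 and 0.24 on the log2 scale). Its size depended on the scaling: relative to all genes it was 0.25 here but 0.082 on the signals as deposited, 0.094 after median centring and 0.11 with a common trimmed mean. The standard error was 0.33 on that scale, and the limma adjusted p 0.946, or 0.787 with the block. Tlr1 stood apart downward, at 19.7 ± 2.14 against 23.3 ± 2.47 (SD, n = 2 each), with -0.40 and -0.02 within the kits (limma adjusted p = 0.956, and 0.852 with the block). These were the 2 of 7 genes whose arrays did not overlap between the fractions, 1 higher (18.3% of all genes tested) and 1 lower (17.3%), together against 35.5%. Both lie near the floor, Tlr1 below it on each array. At such signals, adding 3 before the log2 makes differences somewhat smaller. With 1 added instead, Tlr6 was at 0.27 rather than 0.25 and Tlr1 at -0.23 rather than -0.21.

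For the genes above the floor, the confidence intervals say how large a difference these arrays leave possible. Tlr2 was at 43.6 ± 1.28 in the CD11b-positive against 42.5 ± 3.98 in the CD11b-negative arrays (SD, n = 2 each), with a log2 difference of 0.04 and a 95% interval from -0.65 to 0.73. Myd88 was at 0.21 (-0.35 to 0.76; limma adjusted p = 0.942), made up of -0.02 with the One-Cycle and 0.43 with the 3' IVT Express kit. Ticam1 was at 0.00 (-0.65 to 0.65), with -0.12 and 0.13. Cd180 was at -0.25 (-1.11 to 0.61; limma adjusted p = 0.947), with -0.46 and -0.04. With the block the intervals narrowed to -0.15 to 0.56 for Myd88, -0.39 to 0.39 for Ticam1 and -0.81 to 0.32 for Cd180, and all still held 0. On the signals as deposited, not scaled between arrays, Myd88 was called higher with the block (0.69, limma adjusted p = 0.0128), where the median of all genes also stood at 0.42; relative to that median it was at 0.28. Ly86 was at -0.18 with the widest interval of the 7 without the block, -1.45 to 1.10. A p that misses the threshold does not show that the fractions are alike.

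Directions within the kits were divided. Tlr6 had the higher signal in CD11b-positive cells with either kit (1 of 7, against 31.6% of all genes), Tlr1 and Cd180 were lower with both (2 of 7, against 30.5%), and Tlr2, Myd88, Ticam1 and Ly86 went opposite ways (4 of 7, against 37.8%). The median difference of the 7 genes was 0.00, as was that of all genes.

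**Figure D2:**
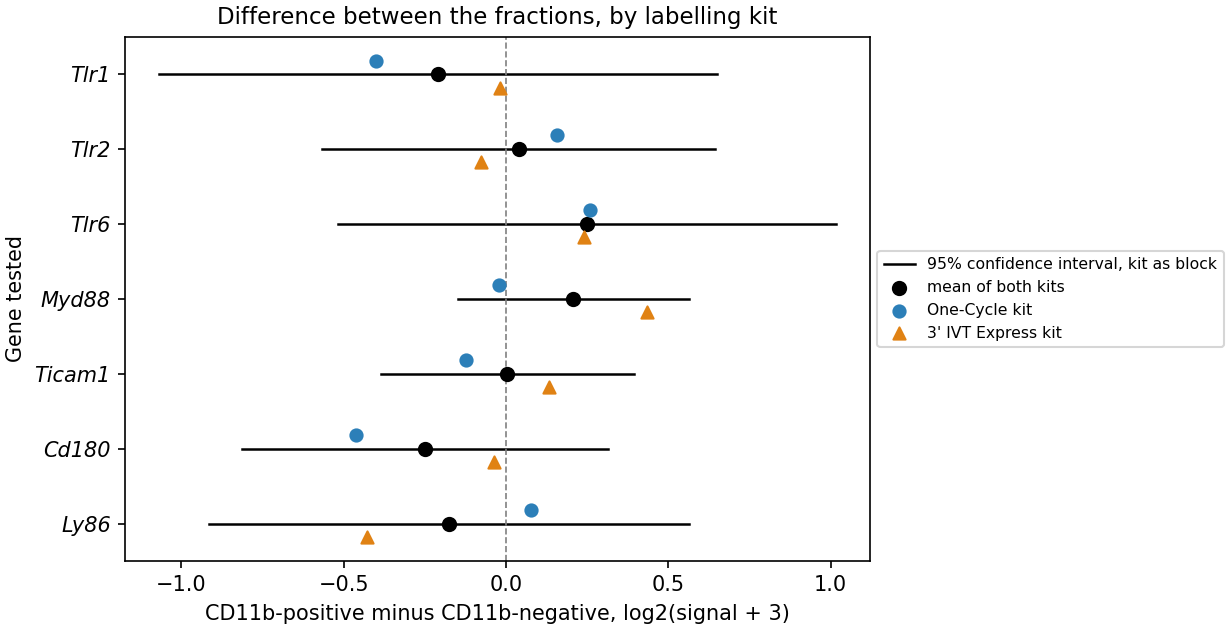
CD11b-positive minus CD11b-negative difference on log2(signal + 3) for the 7 genes tested: black points are the mean of both kits with the 95% confidence interval of the limma fit with kit as block, blue circles the One-Cycle and orange triangles the 3' IVT Express kit. Every interval crosses 0, and the kits fall on opposite sides of 0 for Tlr2, Myd88, Ticam1 and Ly86.

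Other genes of the pathway were taken from lists of its parts. Without the block, 0 of the 75 tested genes in these lists were called, with 2 higher and 7 lower at an unadjusted p under 0.05, against 6.66% of all genes in either direction. With the block 3 were called higher and 9 lower, against 3.73% and 4.14% of all genes. Calls in the next paragraphs are those of limma with the kit as a block, and none of them holds without it. The 9 lower calls went the same way as the summed signal of epithelial markers, 0.548-fold with the One-Cycle and 0.385-fold with the 3' IVT Express kit, and of T and NK cell markers, 0.541-fold and 0.728-fold (CD11b-positive over CD11b-negative); their part in the calls was not tested. In bulk samples, fewer cells of a type and less RNA per cell cannot be told apart.

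Other Toll-like receptors gave little signal. Of the 5 on the array with a probe set of their own, 0 lay above the floor on all 4 arrays, against 44.1% of all genes. Tlr3, the sensor of double-stranded RNA, ran from 1.43 to 6.58, Tlr13 from 1.37 to 8.21 and Tlr5, the flagellin receptor, from 7.41 to 19.7. Tlr8 had 21.5 and 20.4 in the CD11b-negative against 4.62 and 3.96 in the CD11b-positive arrays, all below the floor (adjusted p = 0.0797 with the block). Tlr12, which senses a profilin of protozoa, was the 1 receptor called lower, with 35.7 and 37.9 against 4.01 and 26.6 (adjusted p = 0.0499 with the block). The CD11b-negative arrays were above the floor and the CD11b-positive ones below it. The size of that difference rested on 1 array, at -2.47 (log2) with the One-Cycle kit but -0.47 with the other.

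Co-receptors and genes of receptor transport lay above the floor on all 4 arrays for 12 of 16, against 44.1% of all genes. Cd14, which hands lipopolysaccharide to Tlr4, had 36.4 and 33.95 in the CD11b-negative against 65.01 and 55.6 in the CD11b-positive arrays, so the fractions did not overlap; the 1.65-fold difference was not called (adjusted p = 0.728 without and 0.134 with the block). Ly96, the lipopolysaccharide-binding partner of Tlr4, had 49.4 and 60.8 against 51.0 and 75.6. Unc93b1, which carries the endosomal receptors to their compartment, had 505 and 453 against 546 and 399, and Hsp90b1 (gp96), the chaperone that folds most Toll-like receptors, 7202 and 6858 against 9000.1 and 6795. Cnpy3, a co-chaperone of gp96, had 17.7 and 42.04 against 37.7 and 37.1. The fractions overlapped for Ly96, Unc93b1, Hsp90b1 and Cnpy3, and none was called. Over the whole list, the fractions of 7 of the 15 tested genes did not overlap, against 35.5% of all genes tested. Of these 7, 4 were higher (18.3% of all genes tested) and 3 lower (17.3%). With the block, 0 of the 15 were called higher and those 3 were called lower, against 4.14% of all genes. They were the cathepsins Ctss (2365 and 1897 against 1563 and 1483; 1.39-fold, adjusted p = 0.00120) and Ctsb (2496 and 1812 against 1702 and 1546; 1.31-fold, adjusted p = 0.00940), and the proton pump subunit Atp6v0a1 (216 and 222 against 141 and 133; 1.59-fold, adjusted p = 0.00833). The protease Lgmn went the other way in value (109 and 110.2 against 126 and 118) and Ctsl, a further cathepsin, stood at 0.080 on the log2 scale; neither was called. For Ctsb the probe sets disagreed, at -0.39 on the log2 scale for the one used and -0.38, -0.055, 0.12 and 0.13 for the others. For Atp6v0a1 the probe set used had the largest difference, at -0.67, with -0.62, -0.30 and -0.28 for the others. The one at -0.30 went the other way with the 3' IVT Express kit (24.3 in the CD11b-negative against 27.6 in the CD11b-positive array).

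Downstream of the receptors, 25 of 27 adaptors, kinases and transcription factors lay above the floor on all 4 arrays, against 44.1% of all genes. With the block, 1 of 26 tested was called higher and 3 lower, against 3.73% and 4.14% of all genes. Tirap, which bridges Tlr2 and Tlr4 to Myd88, had 196 and 171 in the CD11b-negative against 198 and 182 in the CD11b-positive arrays, and Traf6, the ubiquitin ligase below the Irak kinases, 72.8 and 122 against 79.9 and 132; neither was called. Irak1, a kinase recruited by Myd88, was called lower: 635 and 1350 against 427 and 824, 1.56-fold (adjusted p = 0.000184). Its probe sets disagreed, at -0.64 for the one used, -0.26, -0.18 and 0.24 for the others on the log2 scale. Irak2, which sustains the Myd88 signal, was 1.44-fold lower (195 and 219 against 130 and 156; adjusted p = 0.0421). Irf8, a transcription factor of B and myeloid cells, was 1.81-fold lower (184 and 160 against 105 and 82.8; adjusted p = 0.00246). Irf7, a factor of the interferon response, had 177 and 188 against 130 and 139 and was not called (adjusted p = 0.125), nor was Map3k8 (-0.58 on the log2 scale, adjusted p = 0.247). Ube2n, the ubiquitin-conjugating enzyme that works with Traf6, was called higher: 369 and 193 against 520 and 295, 1.46-fold (adjusted p = 0.00816). It is named because it was called, although its arrays overlap and the naming rule would have left it out.

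Of 16 inhibitors of the pathway, 13 lay above the floor on all 4 arrays (44.1% of all genes did), and 2 of 16 tested were called lower (4.14% of all genes), both also induced by NF-kB itself. Nfkbia had 6685 and 5750 in the CD11b-negative against 3877 and 3498 in the CD11b-positive arrays (adjusted p = 2.44e-07), and all of its 5 probe sets went the same way, from -0.56 to -1.02. Tnfaip3 (A20) had 1062 and 904 against 647 and 520.1 (adjusted p = 1.77e-05). Nlrc5 was not called (49.9 and 37.2 against 14.6 and 20.7; adjusted p = 0.0512). Irak3, the inhibitory member of the Irak family, had 66.7 and 74.2 against 74.6 and 88.1 (adjusted p = 0.714). Its probe sets disagreed, at 0.20 on the log2 scale for the one used and -0.31 for a weaker one.

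**Figure D3:**
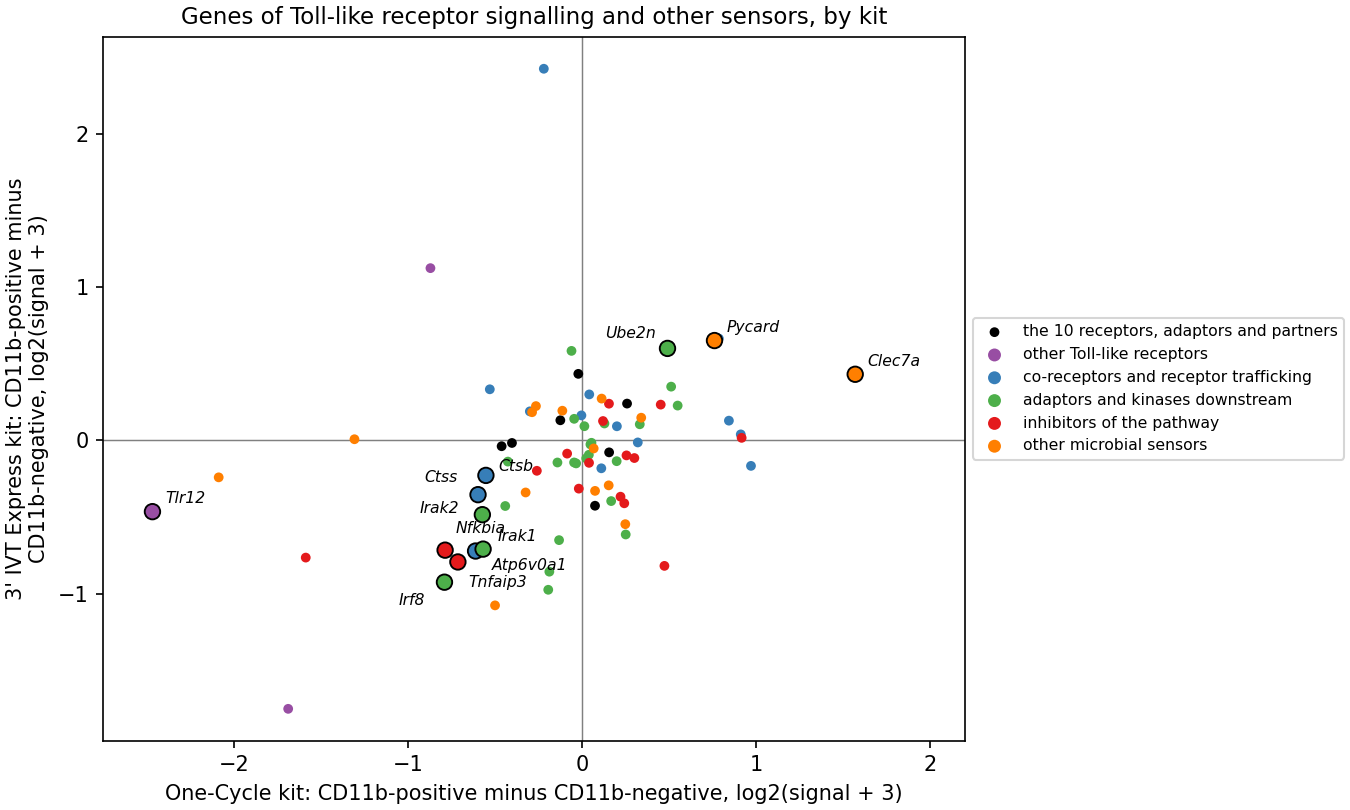
Difference between the fractions with the One-Cycle kit on the x axis against the 3' IVT Express kit on the y axis, both CD11b-positive minus CD11b-negative on log2(signal + 3), for every tested gene of the lists; colours give the list, and large outlined, named points are those called by limma with the kit as block. Ube2n, Pycard and Clec7a lie in the upper right, the 9 genes called lower in the lower left, and the 7 Toll-like receptors, adaptors and partners around the centre.

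These calls moved with the array scaling and with single arrays. With the block, the other 4 scalings all called Ube2n, and called Nfkbia, Tnfaip3 and Irf8 in 3 of 4, Irak1, Ctss and Atp6v0a1 in 2 and Tlr12, Ctsb and Irak2 in 1. Relative to all genes each of these kept its direction under all 4. Without the block and without 1 array the differences kept their sign too, but some changed in size: Irak1 was at -0.17 without CD11b-positive replicate 1, at -0.10 when CD11b-negative replicate 2 was left out, at -1.18 without CD11b-negative replicate 1, and at -1.11 when CD11b-positive replicate 2 was left out. In the same order, Ube2n was at 0.14, 0.085, 1.01 and 0.95. Tlr12 was at -0.43 without CD11b-positive replicate 1 but at -2.51 without CD11b-positive replicate 2. Ctsb was at -0.16 without CD11b-negative replicate 1 but at -0.62 without CD11b-negative replicate 2. Ctss was at -0.32 without CD11b-negative replicate 1.

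Markers of other cells were read beside these results. Of 16 epithelial markers 16 lay above the floor on all 4 arrays, and their summed signal was 6874 and 6607 in the CD11b-negative against 3765 and 2542 in the CD11b-positive arrays. For mature B cells, a source of Cd180, Ly86, Tlr7 and Tlr9, 5 of 11 markers lay above the floor on all arrays. The sum was 4729 and 2097 against 3013 and 2186, lower in the CD11b-positive array of the One-Cycle kit only. Cd79a and Cd79b made up most of it. Cd79a was lower with both kits, at 2936 and 638 against 1659 and 468 (limma adjusted p = 0.000157 with the block). Blk was called higher, at 141 and 156 against 219 and 276 (limma adjusted p = 0.00341 with the block). Pax5 was above the floor on 1 array and Ciita on 0. For macrophages and monocytes, a source of Tlr2, Tlr4 and Cd14, 4 of 14 markers lay above the floor on all arrays. The sum of the 14, which includes Cd14 itself, was 469.6 and 399.8 against 666 and 450.3. Cd163, Mrc1, Mertk, Cx3cr1 and Fcgr1 were below the floor on all arrays, while Adgre1 and Csf1r were above it on all. Lyz2 had 136 and 76.2 in the CD11b-negative against 219 and 98.0 in the CD11b-positive arrays. C1qb had 16.1 and 21.0 against 58.9 and 34.1. C1qa and C1qc were above the floor only on the CD11b-positive array of the One-Cycle kit, at 49.6 and 35.5. Adgre1, Csf1r and Mertk were lower with both kits. None of those tested was called with the block. For dendritic cells 2 of 9 markers lay above the floor on all arrays (sum 485 and 777 against 470.1 and 683), with Xcr1, Zbtb46, Batf3 and Cd209a below the floor throughout. The 2 went opposite ways. Itgax (CD11c) was called higher, at 59.4 and 61.7 against 98.9 and 126 (limma adjusted p = 0.0132 with the block). Bst2 was called lower, at 313 and 581 against 232 and 396 (limma adjusted p = 0.0151 with the block). For neutrophils 1 of 10 lay above the floor on all arrays (196 and 135 against 128 and 135), with S100a8, S100a9 and Cxcr2 below the floor on all arrays. T and NK cell markers summed to 4344 and 1655 against 2352 and 1205 with 7 of 10 above it, eosinophil markers to 119 and 97.6 against 61.9 and 53.1 with 1 of 6, B-1 cell markers to 1531 and 2187 against 1633 and 2084 with 5 of 6, and stromal and endothelial markers to 201 and 294 against 225 and 254 with 2 of 10. Gzma and Gzmb made up most of the T and NK cell sum. Prg2 was the largest part of the eosinophil sum. It was called lower, at 86.2 and 89.96 against 28.7 and 33.2 (limma adjusted p = 0.000643 with the block). The other eosinophil markers were below the floor on all arrays. Ptpn22 was the largest part of the B-1 cell sum and was lower with both kits, as was Bhlhe41. Spn was called higher, at 265 and 404 against 465 and 622 (limma adjusted p = 0.000268 with the block). Zbtb32 was higher with both kits, and only Spn was called. The part of all these cells in the signals and differences above was not tested.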

How the data were processed

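The 4 arrays are those of 4 samples, 2 per fraction. Each deposited file holds an intensity (linear MAS5 signal) for every probe set. MAS5 and Affymetrix Expression Console are named in the submitters' processing notes. Their versions and the scaling target were not given in the sources used here. Among 45101 probe sets, 64 controls were left out. Probe sets were named from the platform annotation, where 34958 name 1 gene, 932 several and 9147 are unnamed here; names were checked against the gene table of GRCm38.p6, where 34754 of the gene identifiers were found and 0 symbols changed.

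Signals were quantile-normalized, 3 was added and log2 taken. The probe set of highest mean log2 signal stood for a gene, and genes above the 40th percentile were kept. The fit over 12645 genes used lmFit and eBayes of limma 3.58.1 (R 4.3.3) with trend and 2-sided p-values, adjusted by Benjamini-Hochberg. The model was tested on simulated data. The smallest p of an exact permutation test of 2 against 2 arrays is 0.333, and no such test was run.

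The labels name the labelling kit, which pairs arrays across the fractions; deviations from the fraction means of arrays sharing a kit correlated across genes (r = 0.387, the same for both kits by construction). In the fit with the kit as a block, eBayes added 25.6 prior degrees of freedom to each gene. Intervals are 95% confidence intervals.

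The genes and lists were chosen with earlier results of these data known. Of 108 listed pathway genes, 94 were on the array with a probe set naming 1 gene, 2 of them under a newer name (Sting1, Cgas); the others, among them Irak4 and Tlr11, are not analysed here. Likewise 100 of 109 cell type markers were used. The text names all 10 genes, their direct partners, the other Toll-like receptors, and up to 4 genes per list by smallest p with the block among those whose fractions do not overlap. Lgmn, Ctsl, Aim2 and Sting1 are named outside this rule, as is Ube2n, which was called with the block. Alternatives were pseudocounts of 1 and 12, 4 other scalings, other filters, the mean of probe sets, no cross-hybridising probe sets, the block, no trend, the 75th percentile as floor and leaving out each array; choosing probe sets and filtering by the mean of linear signals, and the block combined with the other scalings, were added after seeing the data.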

Additional observations from a re-analysis of the deposited data

Results flagged for a closer look

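For 4 of the 7 genes tested, the difference between the fractions (CD11b-positive minus CD11b-negative, log2) pointed opposite ways with the 2 labelling kits, which is what marked them. Tlr2 was at 0.16 with the One-Cycle and -0.08 with the 3' IVT Express kit. Myd88 was at -0.020 and 0.43, and Ticam1 at -0.12 and 0.13. Ly86 was at 0.076 and -0.43. With 1 array per fraction and kit, the difference between kits was not tested. Among all genes tested, 37.8% went opposite ways.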

How the results depend on the processing

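With 2 arrays per fraction, the smallest standard error among the 7 genes without the block, that of Myd88, was 0.23 (log2), which limits what could be called among them. No gene among the 7 was called under any alternative without the block, with adjusted p-values from 0.574 to 1.00, nor with it under quantile normalization, median centring, a common trimmed mean or cyclic loess. On the signals as deposited with the block 1 was called, Myd88 at 0.69 (adjusted p = 0.0128), where the median of all genes was at 0.42; relative to it Myd88 was at 0.28. As deposited, or after median centring (all genes at 0.21), 4 genes were higher with both kits, and 0 with a filter at the 70th percentile, which left 3 of the 7. With the 75th percentile as floor, 7 of 10 genes lay above it on all arrays, adding Tlr1, Tlr6 and Ly86. With signals as deposited and the block, 3809 of all genes and 22 other pathway genes were called; with the block under median centring 1939 and 9, a common trimmed mean 813 and 9, and cyclic loess 824 and 10. Filtering by linear means gave 1151 and 13 with the block, against 996 and 12, and let Tlr4 into the test, uncalled. Leave-one-out fits without the block called 24 of all genes when CD11b-positive replicate 1 was left out and 4 when CD11b-positive replicate 2 was; each leaves 1 array alone in its fraction, assumed to vary like the others, and the kits uneven.

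Directions of Tlr1, Tlr6 and Myd88 were kept under each alternative, relative to all genes where these shifted. Tlr2 turned lower relative to all genes as deposited (0.36, relative -0.059), after median centring (0.15, relative -0.054), with a common trimmed mean (-0.094) and without CD11b-negative replicate 1 (-0.050). Ticam1 turned with a common trimmed mean (-0.012; 0.035 relative to all genes). Leaving out 1 array at a time, Tlr1 ran from -0.31 to -0.11 (nearest 0 without either array of replicate 1), Tlr6 from 0.24 to 0.26, Myd88 from 0.061 (without CD11b-positive replicate 2; 0.13 when the CD11b-negative one was left out) to 0.35 (without CD11b-positive replicate 1), Tlr2 ran from -0.050 to 0.13, Ticam1 from -0.25 (CD11b-negative replicate 2; -0.12 without CD11b-positive replicate 1) to 0.25, Cd180 from -0.64 to 0.14 (turning without CD11b-positive replicate 1) and Ly86 from -0.83 to 0.48 (CD11b-positive replicate 2; 0.23 without CD11b-negative replicate 1). The cause was not tested. The replicate block leaves each difference as it is, since the design is balanced (Myd88 at 0.21 with and without it), and alters only the error.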

Other observations

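Sensors outside the Toll-like family were measured too. Of 20 on the array, 6 lay above the floor on all 4 arrays, against 44.1% of all genes. With the kit as a block, limma called 2 of the 15 tested higher in the CD11b-positive fraction and 0 lower. Of all genes, 7.88% were called in either direction. Without the block it called 0 of the 15. At an unadjusted p under 0.05, 1 was higher and 0 lower, against 6.66% of all genes in either direction. Pycard (ASC), the adaptor that joins inflammasome sensors to caspase-1, had signals of 1391 and 1605 in the CD11b-negative against 2361 and 2523 in the CD11b-positive arrays, 1.63-fold higher (adjusted p = 0.506 without and 3.95e-06 with the block). It was called with the block under each of the other 4 scalings, and a second, weaker probe set above the filter stood at 0.16 against 0.71 on the log2 scale. Casp1, which that adaptor activates, had 324 and 267 against 258 and 209.9 (adjusted p = 0.173 with the block).

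Clec7a (dectin-1), the receptor of fungal beta-glucan and mainly known from myeloid cells, had 33.2 and 28.4 against 104 and 39.4, with 1.57 and 0.43 within the kits (limma adjusted p = 0.0436 with the block, and 0.785 without it). Without CD11b-positive replicate 1 it was at 0.33, and without CD11b-positive replicate 2 at 1.67, and with the block it was not called with a common trimmed mean or cyclic loess. Summed macrophage and monocyte markers were 1.42-fold higher in the CD11b-positive array of the One-Cycle kit and 1.13-fold with the other. The median log2 difference of the 10 markers tested was 0.70 with the One-Cycle and -0.0040 with the 3' IVT Express kit. With the block, 0 of the 10 were called higher and 0 lower. The part of such cells in the Clec7a signal was not tested. Ddx58 (RIG-I), a sensor of viral RNA, had 256 and 232 against 325 and 257 (limma adjusted p = 0.365 with the block). Its probe sets disagreed, at 0.24 on the log2 scale for the one used and 0.032 and -0.17 for weaker ones. Aim2, a sensor of cytosolic DNA, had 42.02 and 51.4 against 45.7 and 62.7, and Sting1, which relays DNA sensing, 196 and 202 against 181 and 232; neither was called with the block.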
